A study of Mus musculus with 4 samples.

Results

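CD8-equivalent dendritic cells (DCs) lacking the microRNA miR-142 were compared with CD4-equivalent DCs lacking it. The comparison is the log2 value of each gene on the knockout (ko) CD8-equivalent array minus its value on the ko CD4-equivalent array, so a positive difference means a higher value in CD8-equivalent DCs. Of the 19938 genes with a probe set of 1 symbol, 10118 were compared, namely those whose higher ko value reached a floor of 5.68, the median of such probe sets over all arrays. A gene with several probe sets was represented by the one with the highest mean.

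Bone marrow of C57BL/6 mice, miR-142+/+ (wild type, wt) or miR-142-/- (ko), had been cultured for 8 days with 200 ng/ml of the cytokine Flt3-L, with fresh medium and cytokine added during the culture. From each culture type, B220- CD11c+ cells were sorted into CD4-equivalent DCs (CD172+ CD24low CD11b+) and CD8-equivalent DCs (CD172- CD24+ CD11blow), and total RNA of each of the 4 groups was hybridised to 1 Affymetrix array. All groups therefore share the strain, the cytokine, the culture time and the sort for CD11c, and no group received a further stimulus. The labels give neither the number of mice or cultures per array nor the age or sex of the mice. They also leave out which part of the miR-142 locus was removed and whether the loss was limited to any cell type. With 1 array a side the ko difference has no replicate check, and it is given by size without a p-value. The wt pair, which shares no array with the ko pair, is given beside it.

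Conventional DCs fall into branches with different tasks. The CD8-equivalent branch (cDC1) depends on the transcription factors IRF8 and BATF3, takes up dead cells and presents their antigens to CD8 T cells. The CD4-equivalent branch (cDC2) depends more on IRF4, carries SIRPα (CD172a) and CD11b and presents antigen mainly to CD4 T cells. Cultures of bone marrow with Flt3-L yield counterparts of both branches as well as plasmacytoid DCs (pDCs), and the word equivalent marks that the surface proteins CD4 and CD8α of spleen DCs are not used to tell them apart. miR-142 is a microRNA made across blood cell lineages, and both strands of its hairpin give mature forms.

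The sequences of the deleted microRNA are shown because its absence is what both arrays of the comparison share. They are the mature forms in RefSeq's GRCm38.p6 table, at chr11:87756867-87756887 (5p) and chr11:87756903-87756925 (3p), both on the plus strand. Capitals mark the seed, bases 2 to 8, which pairs with target messages. The forms have different seeds.
mmu-miR-142a-5p: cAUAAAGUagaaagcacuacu
mmu-miR-142a-3p: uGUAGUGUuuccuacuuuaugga

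The Mir142 probe set read 10.37 in wt CD4-equivalent, 9.87 in wt CD8-equivalent, 4.92 in ko CD4-equivalent and 4.79 in ko CD8-equivalent DCs. Both ko arrays lay below the floor and close to each other. The sources used here do not place its probes relative to the removed part of the locus, so this is a check of the genotype labels only where they lie inside it. On each array between 9774 and 9821 genes reached the floor, and the arrays carry no read depth, so their number limits the precision. In RNA of a bulk sort, fewer cells of a type and less RNA per cell cannot be told apart, which holds for every difference given here.

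Of the 4 markers set for the comparison, Sirpa and Itgam were at least 2-fold apart between the ko subsets. Cd24a, also a gene of a sorted protein, was under 2-fold, and Clec9a hardly differed. Sirpa, which encodes CD172a, read 12.11 in wt CD4-equivalent, 9.69 in wt CD8-equivalent, 11.92 in ko CD4-equivalent and 9.67 in ko CD8-equivalent DCs. Both CD8-equivalent arrays were low, and the ko difference was -2.25, or 4.75-fold. Itgam, which encodes CD11b, read 12.02, 10.01, 11.76 and 9.89 in the same order, with a ko difference of -1.87. Cd24a read 10.98, 12.76, 11.98 and 12.72. Only the wt CD4-equivalent array was clearly low for this gene, and the ko difference of 0.73 compared with 1.78 in wt.

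Clec9a encodes a receptor for dead cells that is used to define cDC1. It read 7.78 in wt CD4-equivalent, 10.89 in wt CD8-equivalent, 10.85 in ko CD4-equivalent and 11.15 in ko CD8-equivalent DCs, so that 3 arrays were high and wt CD4-equivalent alone was low. The ko difference was 0.30, against 3.11 in wt. Itgax, which encodes CD11c and was part of both gates, differed by 0.18 in ko. The defining genes Cd4 and Esam of spleen cDC2 and Cd8a and Ly75 of spleen cDC1 stayed below the floor on both ko arrays. The genes of the sorted proteins thus followed the sort, Sirpa and Itgam clearly and Cd24a at a smaller size, which restates the gates. Clec9a, the marker outside the gates, by itself did not bear out the label of the comparison. Of 20 cDC1 genes compared, described below, 9 were at least 2-fold higher in ko CD8-equivalent DCs and 1 was lower by as much.

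**Figure D1:**
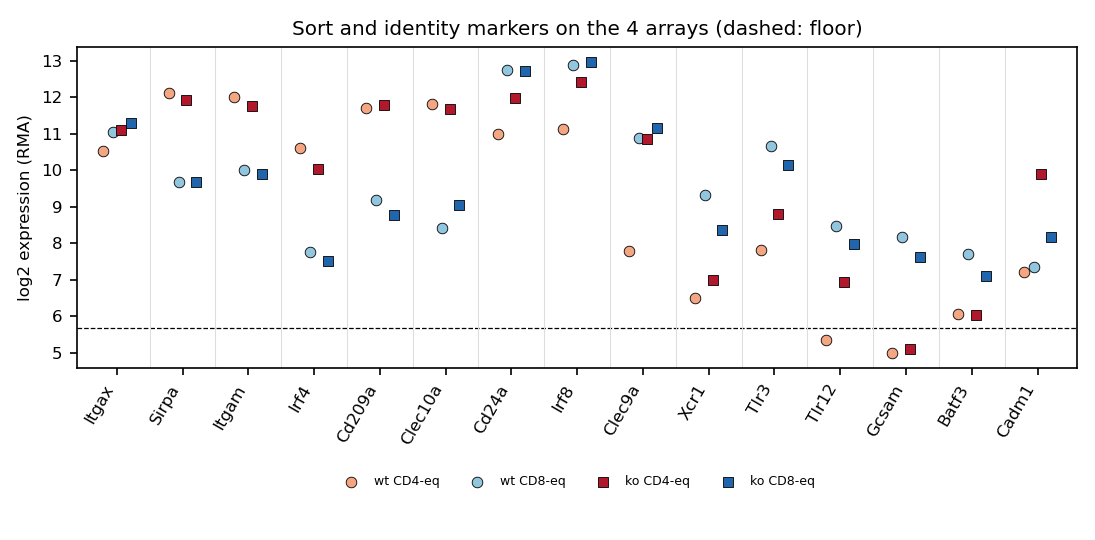
Log2 expression of 15 sort and identity genes on each array, with circles for wt, squares for ko, red tones for CD4-equivalent and blue tones for CD8-equivalent DCs; the dashed line is the floor of 5.68. Sirpa, Itgam and Irf4 are lower on both CD8-equivalent arrays, while Clec9a is low on the wt CD4-equivalent array and at 10.85 to 11.15 on the other 3.

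Most genes differed little between the ko subsets. Of the 10118 genes compared, 9380 (92.7%) lay under 2-fold, 343 (3.39%) were at least 2-fold higher in CD8-equivalent DCs and 395 (3.9%) at least 2-fold lower. Large differences were mostly lower values, with 99 genes at least 4-fold lower against 31 at least 4-fold higher, and 36 against 9 at 8-fold. The gene lists described below were chosen with earlier results of these data known, and their 2-fold counts are to be read against the shares of 3.39% and 3.9%. The median difference was 0.11 and list medians below are to be read against it. After cyclic loess normalisation of the arrays that median was 0.01 and the counts became 248 higher and 469 lower, so the share of higher genes among those 2-fold apart went from 46.5% to 34.6%. The lower of the values lay under the floor for 63 of the higher and 103 of the lower genes, where the summary method compresses ratios. The genes nearest the 2-fold limit were Dnph1 (1.00016) and Zfp36 (-1.0003) inside it and Taf1a (0.99509) and Frrs1 (-0.9997) outside it.

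In wt, 210 of 9998 genes (2.1%) were at least 2-fold higher in CD8-equivalent DCs and 314 (3.14%) at least 2-fold lower. The genes shared with ko numbered 112 higher, which is 32.7% of the ko list and 53.3% of the wt list, and 224 lower, which is 56.7% of the ko list and 71.3% of the wt list. There were 0 genes at least 2-fold apart in opposite directions. Of the genes at least 2-fold higher in ko, 338 of 343 had a wt difference above 0, and of those at least 2-fold lower, 388 of 395 had one below 0. Across the 10239 genes at or above the floor on at least 1 array, the ko and wt differences had a Pearson correlation of 0.785 and a Spearman correlation of 0.716, given as a description over genes, which are not replicates.

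A subset effect common to both genotypes was tested with limma on all 4 arrays, with the genotypes serving as replicates of the subset difference. It called 817 of 10239 genes (7.98%) higher and 650 (6.35%) lower in CD8-equivalent DCs at an adjusted p of 0.05 (Benjamini-Hochberg). After cyclic loess the counts were 686 higher and 723 lower, so which direction held more calls depended on the scaling. Such p-values reflect no more than the spread among the 4 arrays, which may be technical, and rest on 1 residual degree of freedom. For each gene that residual comes from the gap between its ko and wt subset differences. At a given mean difference, a gene whose genotypes disagree therefore gets a larger p. Among the markers, limma's adjusted p for the common effect was 0.0029 for Sirpa, 0.0038 for Itgam, 0.041 for Cd24a and 0.14 for Clec9a. Sirpa, Itgam and Cd24a encode proteins used in the sort, so their calls restate it. Taking the wt from the ko difference of each gene gave 106 genes (1.04%) at 1 or more and 123 (1.2%) at -1 or less. That value uses up the last degree of freedom and has no test. Its middle range was narrow, from -0.11 to 0.26 between the quartiles.

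**Figure D2:**
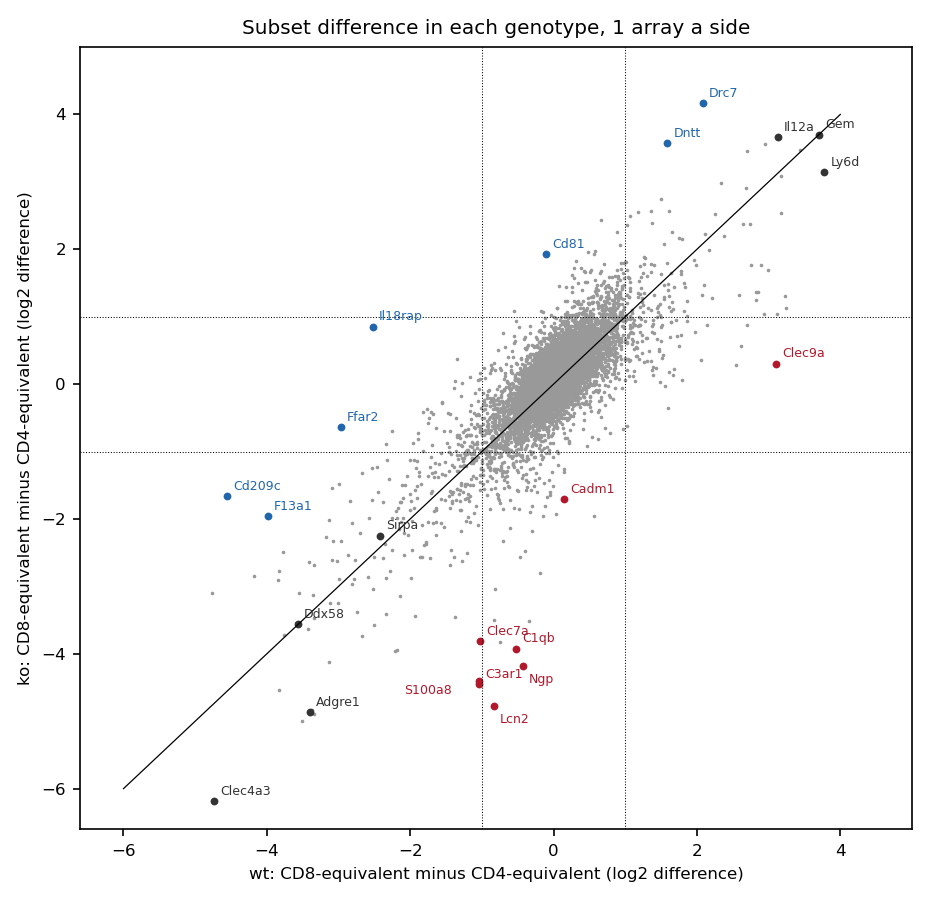
Each dot is 1 of 10239 genes, placed by its log2 subset difference in wt (x axis) and ko (y axis), CD8-equivalent minus CD4-equivalent; the solid line marks equal differences and dotted lines mark 2-fold. Sirpa, Ddx58 and Gem lie along the line, Lcn2, Ngp, S100a8, C1qb and C3ar1 lie far below it, and Il18rap, Cd209c and Ffar2 far above it.

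The gene with the highest value in ko CD8-equivalent over CD4-equivalent DCs was Drc7, a component of the dynein regulatory complex of cilia, which read 4.69 in wt CD4-equivalent, 6.77 in wt CD8-equivalent, 4.73 in ko CD4-equivalent and 8.90 in ko CD8-equivalent DCs. It was highest on the ko CD8-equivalent array, and its difference of 4.17 in ko compared with 2.08 in wt. Gem, a small GTPase, read 6.06, 9.76, 7.20 and 10.90 in the same order, with a difference of 3.70 in each genotype. Il12a, the p35 subunit of interleukin-12, read 5.04, 8.17, 5.69 and 9.36, a ko difference of 3.67. Dntt, the terminal transferase of lymphoid precursors, read 4.97, 6.56, 5.18 and 8.75. Its ko difference of 3.57 exceeded the 1.59 of wt, and the ko CD8-equivalent array was the high one.

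The other genes among the 15 highest had varied roles. Cdh17, a cadherin, differed by 3.56, and the adhesion receptor genes Adgrg1 and Adgrg3 by 3.48 and 2.91. Scin, which severs actin filaments, differed by 3.46, the membrane protein gene Mctp2 by 3.09 and the myosin light chain gene Myl4 by 2.75. Ly6d, a surface marker of lymphoid precursors, differed by 3.14, Nkg7, a granule protein of cytotoxic lymphocytes, by 2.98 and Cd27, a receptor of the TNF receptor family, by 2.57. Gfi1b, a repressor of erythroid and megakaryocyte precursors, differed by 2.57 and the transporter gene Slc35d3 by 2.55. All 15 had a wt difference above 1, from 1.17 for Slc35d3 to 3.78 for Ly6d.

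Among the 15 lowest genes were lectin, chemokine, neutrophil and macrophage genes. Clec4a3, an inhibitory lectin receptor, read 11.61 in wt CD4-equivalent, 6.87 in wt CD8-equivalent, 11.35 in ko CD4-equivalent and 5.16 in ko CD8-equivalent DCs. Its difference was -6.19, and since the ko CD8-equivalent value was below the floor, the size of the gap is uncertain. Adgre1, which encodes an adhesion receptor used to mark macrophages, read 11.49, 8.09, 9.94 and 5.08, a ko difference of -4.86 against -3.40 in wt. Ms4a6d, a tetraspan membrane protein, differed by -5.00 in ko and the lectin gene Clec4a1 by -4.90. Apobec1, a cytidine deaminase that edits messages, differed by -3.95. The rest of the 15 lowest are described with their groups.

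Genes that mark cDC1 leaned towards ko CD8-equivalent DCs, but less than in wt. Of 20 compared, 9 were higher by 2-fold or more and 1 was lower by as much, with a median difference of 0.79 in ko and 1.69 in wt, and 19 of 20 had a smaller or more negative difference in ko. Gcsam, a signalling adaptor of germinal centre B cells, read 5.00, 8.17, 5.10 and 7.64 in wt CD4-equivalent, wt CD8-equivalent, ko CD4-equivalent and ko CD8-equivalent DCs. It kept a wide gap in ko of 2.54. Xcr1, the chemokine receptor used to identify cDC1, read 6.50, 9.33, 7.00 and 8.36, a ko difference of 1.36 against 2.83. Tlr3, a sensor of double-stranded RNA, read 7.81, 10.66, 8.79 and 10.16, and Tlr12, a sensor of profilin, 5.35, 8.47, 6.95 and 7.99. In both genes the ko CD4-equivalent array was above and the ko CD8-equivalent array below its wt counterpart, so the gap narrowed from both sides.

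The other cDC1 genes at least 2-fold higher were Snx22 (1.76), Hepacam2 (1.24), Rab7b (1.09), Batf3 (1.08) and Ifi205 (1.03). Ifi205 was under 2-fold after median centring. Batf3 and Irf8 encode transcription factors that cDC1 need. Irf8 read 11.13, 12.87, 12.42 and 12.98, so the ko difference was 0.56 against 1.74 in wt and the ko CD4-equivalent value was near those of the CD8-equivalent arrays. Cadm1, an adhesion molecule of cDC1, went the other way. It read 7.22 in wt CD4-equivalent, 7.36 in wt CD8-equivalent, 9.89 in ko CD4-equivalent and 8.18 in ko CD8-equivalent DCs, a ko difference of -1.71, with the highest value in ko CD4-equivalent DCs.

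The cDC2 genes all lay below 0 in ko. Of 20 compared, 13 were at least 2-fold lower in CD8-equivalent DCs and 0 higher, with a median of -1.59 in ko and -1.22 in wt. Irf4, the transcription factor of the branch, read 10.62, 7.76, 10.04 and 7.51 in wt CD4-equivalent, wt CD8-equivalent, ko CD4-equivalent and ko CD8-equivalent DCs, a ko difference of -2.53. Both CD8-equivalent values were low and close together. Cd209a, a DC-SIGN homologue, read 11.71, 9.20, 11.80 and 8.76, and Mgl2, a galactose lectin, 8.21, 5.47, 9.35 and 5.97. Clec10a, another galactose lectin, differed by -2.63, the chemokine receptor gene Cx3cr1 by -1.61 and the calcium-binding protein gene S100a4 by -1.45. Klf4 (-0.89), Zeb2 (-0.63) and Ccr2 (-0.35) lay under 2-fold.

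Among 24 transcription factors of DC subsets, 1 was at least 2-fold higher (Batf3) and 4 lower, with a median of -0.23. The lower ones were Irf4, Cebpa (-1.34), a factor of myeloid precursors, Relb (-1.17), a subunit of NF-kB, and Prdm1 (-1.03), a repressor. Id2, an inhibitor needed by cDC1, differed by 0.57, and Zbtb46, which marks conventional DCs, by 0.11. Among 16 genes of the shared DC programme and growth factor receptors, 5 were at least 2-fold lower and 1 higher. The lower ones included Csf1r (-1.22), the macrophage colony factor receptor, with Csf2ra (-1.09) and Csf2rb (-1.06), subunits of the GM-CSF receptor. Il7r, the interleukin-7 receptor, was higher by 1.29, and Flt3, the receptor of the cytokine in the culture, differed by 0.34.

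Of 11 pDC genes compared in ko, 4 were at least 2-fold higher in CD8-equivalent DCs and 1 was lower, with a median of 0.64 against 1.47 in wt for the same genes. The higher ones were Ly6d, Cox6a2, a mitochondrial oxidase subunit, Pacsin1 (1.19), an adaptor of membrane bending, and Ccr9 (1.04), a chemokine receptor. After median centring Ccr9 was under 2-fold. Cox6a2 read 8.58, 11.34, 9.68 and 11.44 in wt CD4-equivalent, wt CD8-equivalent, ko CD4-equivalent and ko CD8-equivalent DCs, so its gap in ko was 1.76. Siglech, a surface lectin that defines pDCs, differed by 0.49 and Tcf4, their transcription factor, by 0.64. Lair1 and Cd300c, inhibitory and paired receptors, lay at 0.04 each. On the other side of 0 were Irf7 (-1.16), the interferon regulator that was the lower one, and Spib (-0.77), another factor of pDCs. The summed level of the list was 12.69 in wt CD4-equivalent, 13.86 in wt CD8-equivalent, 13.62 in ko CD4-equivalent and 14.05 in ko CD8-equivalent DCs on the log2 scale. The sort had removed cells with B220, which pDCs carry, and the part of pDC genes in the subset difference was not tested.

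Precursor genes were mixed in size. Of 15 compared, 5 were higher by 2-fold or more in ko CD8-equivalent DCs, 0 were lower by as much and 12 lay above 0, with a median of 0.52 in ko and 0.48 in wt. Myb, a transcription factor of haematopoietic precursors, read 7.63, 10.00, 8.74 and 10.93 in wt CD4-equivalent, wt CD8-equivalent, ko CD4-equivalent and ko CD8-equivalent DCs, a ko difference of 2.20 and a wt difference of 2.37. Sox4, another such factor, read 6.19, 6.90, 6.08 and 7.87, and its gap was wider in ko (1.79) than in wt (0.70). Cdk6, a cell cycle kinase, differed by 1.77, the granule protease gene Ctsg by 1.20 and Dntt by 3.57. Hoxa9, a homeobox factor, differed by 0.77, and Kit, the stem cell factor receptor, by 0.91. The 3 below 0 were Elane (-0.66), a granule protease, Eya1 (-0.32), a transcriptional coactivator, and Igf2bp3 (-0.25), an RNA-binding protein.

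Of 13 neutrophil genes compared, 10 were at least 2-fold lower in ko CD8-equivalent DCs and 0 higher, with a median of -2.63. These genes entered the comparison mostly through a high ko CD4-equivalent value. Only 5 of them were at the floor in wt, 3 of which were at least 2-fold lower there (Mmp8, Csf3r and S100a8), so the wt median of -0.39 comes largely from values below the floor on both wt arrays. Lcn2, which binds bacterial iron carriers, read 6.47 in wt CD4-equivalent, 5.64 in wt CD8-equivalent, 10.28 in ko CD4-equivalent and 5.50 in ko CD8-equivalent DCs. S100a8, a subunit of calprotectin, read 6.54, 5.50, 9.62 and 5.22 in that order, and Ngp, a protein of neutrophil granules, 5.61, 5.18, 9.47 and 5.28. In all 3 genes the ko CD4-equivalent array alone was high, and the other arrays lay within 1 log2 unit of the floor. Their ko differences were -4.78, -4.40 and -4.19.

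S100a9 (-3.83), the other calprotectin subunit, Retnlg (-3.52), a resistin-like protein, Ltf (-1.93), lactoferrin, Mmp9 (-1.68), a gelatinase, and Cxcr2 (-1.42), a chemokine receptor, followed the same order in ko. Mmp8 (-3.13), a collagenase, and Csf3r (-2.63), the granulocyte colony factor receptor, were also far apart in wt, at -3.36 and -3.02. The precursor-stage granule genes of the list did not share the pattern, with Mpo at 0.52, Prtn3 at 0.50 and Elane at -0.66 in ko. Summed over the list, the log2 level was 10.22 in wt CD4-equivalent, 9.43 in wt CD8-equivalent, 12.15 in ko CD4-equivalent and 9.83 in ko CD8-equivalent DCs, and 13 of 15 members reached the floor in ko CD4-equivalent against 2 of 15 in ko CD8-equivalent DCs. The list members below the floor on both ko arrays were Ly6g and Camp. The part of neutrophil RNA in the ko subset difference was not tested.

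Every monocyte and macrophage gene compared, 14 of 14, was at least 2-fold lower in ko CD8-equivalent DCs, with a median of -2.41 in ko and -1.07 in wt. All 14 reached the floor in ko CD4-equivalent but only 8 in ko CD8-equivalent DCs. The rest entered the comparison only through their ko CD4-equivalent value, so the filter contributes to this count. Mrc1, the mannose receptor, read 9.17, 5.34, 9.43 and 4.90 in wt CD4-equivalent, wt CD8-equivalent, ko CD4-equivalent and ko CD8-equivalent DCs, and the subsets were far apart in both genotypes. C3ar1, the receptor of complement fragment C3a, read 10.10, 9.06, 10.67 and 6.23, and C1qb, a chain of complement C1q, 8.45, 7.93, 9.48 and 5.56. For these genes the ko CD8-equivalent array alone was far below the rest, and the ko differences were -4.45 and -3.92 against -1.05 and -0.52. C1qc (-3.04), Apoe (-1.95), a lipid carrier, and Lyz2 (-1.86), lysozyme, had the same shape.

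Ms4a7 (-3.96), Fcgr1 (-2.85), the high-affinity IgG receptor, and F13a1 (-1.96), a clotting factor subunit, were also lower in both genotypes, and F13a1 more so in wt (-3.99). The summed log2 level of the list was 14.62, 13.65, 14.59 and 12.67 in wt CD4-equivalent, wt CD8-equivalent, ko CD4-equivalent and ko CD8-equivalent DCs. The list members that reached the floor on neither ko array were Mertk, C1qa, Cd163 and Timd4, with differences from -0.54 to -0.07. Beside the cDC2 genes, which were lower in the same comparison, the part of macrophage RNA was not tested. Markers of other lineages were few. Of 9 B cell genes measured 4 were compared, with Fcrla (1.55) and Ebf1 (1.28) higher. Of 11 T and NK cell genes 3 were compared, with Nkg7 and Cd2 (1.44) higher. Fcrla, Ebf1, Nkg7 and Cd2 entered the comparison only through their ko CD8-equivalent value, so the filter fixed their direction. For Ebf1 that value, 5.69, barely reached the floor. Of the mast cell, basophil and eosinophil genes, 2 of 10 were compared, with Siglecf at -0.98, and of the erythroid and megakaryocyte genes 0 of 7.

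**Figure D3:**
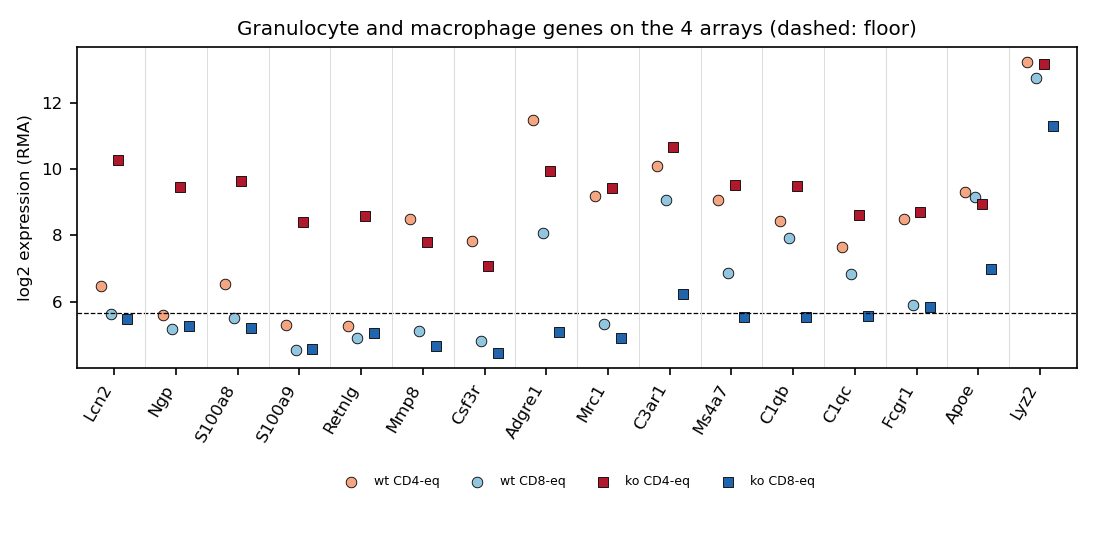
Log2 expression of 16 neutrophil and macrophage genes on each array, with circles for wt, squares for ko, red tones for CD4-equivalent and blue tones for CD8-equivalent DCs; the dashed line is the floor of 5.68. Lcn2, Ngp, S100a8, S100a9 and Retnlg are high on the ko CD4-equivalent array alone, while C3ar1, C1qb, C1qc and Apoe are low on the ko CD8-equivalent array.

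C-type lectins, which bind sugars on microbes and dying cells, were lower in CD8-equivalent DCs of both genotypes. Of 20 compared, 16 were at least 2-fold lower in ko CD8-equivalent DCs and 0 higher. The median was -1.86 in ko and -2.63 in wt. All 20 reached the floor in ko CD4-equivalent but only 11 in ko CD8-equivalent DCs. The rest entered the comparison only through their ko CD4-equivalent value, so the filter contributes to the count. Clec7a, the beta-glucan receptor Dectin-1, read 8.18, 7.15, 10.05 and 6.24 in wt CD4-equivalent, wt CD8-equivalent, ko CD4-equivalent and ko CD8-equivalent DCs, so the ko gap of -3.81 exceeded the wt gap of -1.03. Clec4n, which encodes Dectin-2, read 9.85, 5.08, 8.19 and 5.10, and its ko gap of -3.10 was narrower than the -4.77 of wt. Cd209c, another DC-SIGN homologue, read 9.92, 5.36, 6.67 and 5.01. Its wt CD4-equivalent value stood far above the other arrays, and the ko gap was -1.66 against -4.56. Clec4a, Clec4b and Cd209 genes lie in clusters of near-identical copies, whose probes may be shared, so their single values are uncertain.

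The Ifitm and Ms4a membrane protein families followed the same direction. Of 11 compared, 8 were at least 2-fold lower and 0 higher, with a median of -1.65 in ko and -1.20 in wt. Ifitm6 (-2.50), Ifitm1 (-1.65) and Ifitm3 (-1.50), which block virus entry or resemble proteins that do, lay beside Ms4a4a (-2.33), Ms4a6b (-2.21) and Ms4a4c (-1.58). Ifitm1 differed by only -0.05 in wt. In both families close paralogs may share probes. Among 19 SIRP, Siglec and CD300 receptors and their relatives, 7 were at least 2-fold lower and 0 higher. They were Lilrb4a (-2.68), Siglece (-2.57), Sirpa, Pilrb1 (-2.13), Cd300ld (-1.99), Cd300lb (-1.64) and Cd300e (-1.17). Of the 19, 14 reached the floor in ko CD8-equivalent DCs, and the rest entered only through their ko CD4-equivalent value. Lilrb4a and its copy Lilr4b cannot be told apart with certainty. Cd47, the ligand of SIRPα, differed by -0.07.

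Toll-like receptors split by subset. Of 14 genes of the family and its adaptors, 7 were at least 2-fold lower in ko CD8-equivalent DCs and 2 higher, with a median of -0.93 in ko and -0.83 in wt. Tlr8 read 8.70, 5.93, 7.64 and 5.03 in wt CD4-equivalent, wt CD8-equivalent, ko CD4-equivalent and ko CD8-equivalent DCs, and Tlr13, a sensor of bacterial ribosomal RNA, 10.72, 9.34, 9.73 and 7.17. Their ko differences were -2.61 and -2.56. Cd14 (-1.91), Tlr1 (-1.73), Tlr4 (-1.55), Tlr2 (-1.35) and Tlr6 (-1.02), which handle bacterial lipids, were also lower. The higher ones were Tlr3 and Tlr12, and Tlr12, at 1.04, was under 2-fold after cyclic loess or median centring. Tlr9 (-0.84) and Tlr7 (-0.64), sensors of nucleic acids in endosomes, lay under 2-fold.

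The cytosolic RNA sensors and interferon-stimulated genes were mostly lower in CD8-equivalent DCs of both genotypes. Of 24 interferon-stimulated genes compared, 13 were lower by 2-fold or more in ko and 0 were higher. The median was -1.24 in ko and -1.56 in wt. All 24 reached the floor in ko CD4-equivalent but only 14 in ko CD8-equivalent DCs. The rest entered only through their ko CD4-equivalent value, so the filter contributes to the count. Ddx58, which encodes RIG-I, read 9.72, 6.15, 8.80 and 5.23 in wt CD4-equivalent, wt CD8-equivalent, ko CD4-equivalent and ko CD8-equivalent DCs, a difference of -3.57 in each genotype. Ifih1, which encodes MDA5, read 9.61, 7.49, 9.31 and 7.26, a ko difference of -2.05. Oasl2, an oligoadenylate synthetase-like protein, read 9.53, 5.76, 8.90 and 5.19, and Ifit3, which binds foreign RNA with its partners, 9.42, 5.87, 9.06 and 5.96. In each of these genes both CD8-equivalent arrays were low and both CD4-equivalent arrays high. In 20 of the 24 the ko difference was less negative or more positive than in wt, a shift that was not tested. The median of the ko minus the wt difference was 0.07 over the 10239 genes at the floor on any array, so the count is to be read against it. Examples were Oas1a (-1.32 against -2.68) and Rtp4 (-2.84 against -4.18). Both lay below the floor in CD8-equivalent DCs of each genotype, so the sizes of their gaps are uncertain.

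Genes of the response were not uniform. Oas2 (-2.90), Rtp4 (-2.84), Xaf1 (-2.60) and Usp18 (-1.35) were lower, while Mx1 (-0.43), Irf9 (-0.27), Oasl1 (-0.24) and Stat2 (0.06) lay under 2-fold, and Bst2 was higher by 0.65. Of 8 RNA sensors and adaptors, 3 were at least 2-fold lower (Ddx58, Ifih1 and Zbp1 at -1.49), with a median of -0.57. In 7 of 8 the difference was less negative or more positive than in wt, to be read against the same median of 0.07. Mavs, the adaptor below RIG-I and MDA5, differed by 0.22. The Oas and Ifit genes have near-identical copies, and their single values are uncertain.

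Promoter windows of the interferon-stimulated genes were searched for the letters GAAANNGAAA, the core of the element bound by interferon-activated factors. Windows came from RefSeq's GRCm38.p6 promoter table, 250 bases before to 50 after a transcript start, and both strands were read. A match was found in 9 of the 17 interferon-stimulated genes that the table holds (52.9%), against 305 of 8199 genes compared in ko (3.72%) and 1131 of all 32851 promoters (3.44%). A match is a description of letters and not of a bound site. Stretches of the 4 members with the largest ko differences that hold a match are shown 5′ to 3′ on the gene's strand because these genes stand apart in both genotypes. Capitals mark each match on either strand: Ddx58 at chr4:40239789-40239848 (minus strand), Ifit3 at chr19:34583348-34583407 (plus), Ifih1 at chr2:62646206-62646265 (minus) and Ifit1 at chr19:34640760-34640819 (plus).
Ddx58: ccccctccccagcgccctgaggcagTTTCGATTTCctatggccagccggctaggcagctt
Ifit3: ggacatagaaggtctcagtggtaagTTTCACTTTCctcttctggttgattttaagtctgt
Ifih1: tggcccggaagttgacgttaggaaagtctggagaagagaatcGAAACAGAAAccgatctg
Ifit1: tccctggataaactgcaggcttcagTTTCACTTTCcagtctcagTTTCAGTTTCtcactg

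The Ifit1 window holds 2 matches and the others 1 each. Members without a match included Oasl2 (-3.71) and Xaf1 (-2.60), while Stat2 (0.06) and Bst2 (0.65) held a match. A link between matches and the size of the ko difference was not tested. Ifit1, which binds RNA that lacks the host cap, read 7.47, 4.93, 6.49 and 4.78 in wt CD4-equivalent, wt CD8-equivalent, ko CD4-equivalent and ko CD8-equivalent DCs, a ko difference of -1.72.

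Chemokine genes showed the widest list median. All 7 compared were at least 2-fold lower in ko CD8-equivalent DCs, with a median of -3.25 in ko and -2.34 in wt. All 7 reached the floor in ko CD4-equivalent and 5 in ko CD8-equivalent DCs, and the other 10 measured lay below it. Ccl9 read 11.18, 7.80, 10.91 and 6.06 in wt CD4-equivalent, wt CD8-equivalent, ko CD4-equivalent and ko CD8-equivalent DCs, and Ccl5, which attracts T cells, 9.61, 6.48, 10.36 and 6.23. Their ko differences were -4.84 and -4.13. Ccl6 (-3.41), Ccl22 (-3.25), Ccl3 (-1.73) and Cxcl10 (-1.49) were lower in wt too. Cxcl16, a membrane-bound chemokine, read 8.85, 8.55, 9.36 and 7.55, so the subsets were apart in ko (-1.81) but hardly in wt (-0.30).

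Among 10 cytokine genes, 3 were at least 2-fold lower and 1 higher, the latter being Il12a. Il1b, the inflammatory cytokine interleukin-1 beta, read 8.54 in wt CD4-equivalent, 8.35 in wt CD8-equivalent, 7.98 in ko CD4-equivalent and 5.19 in ko CD8-equivalent DCs. The ko CD8-equivalent array alone was below the floor, and the ko difference was -2.80 against -0.19 in wt. Il12b, the p40 subunit that pairs with p35, read 4.97, 4.70, 6.10 and 4.60, a ko difference of -1.50, with the ko CD4-equivalent array alone above the floor. The subunits of interleukin-12 thus lay on opposite sides of 0 in ko. Il15, a growth factor of NK and memory T cells, differed by -1.72. Among 10 chemokine receptors, Xcr1 and Ccr9 were at least 2-fold higher, Ccr9 not after median centring, and Cx3cr1, Cxcr2 and Ccr1 (-1.18) lower. Ccr7, which guides DCs to lymph nodes, differed by -0.37.

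Antigen presentation genes differed by less. Of 11 genes of the MHC class II pathway, 2 were at least 2-fold lower in ko CD8-equivalent DCs and all 11 lay below 0, with a median of -0.48 in ko and -0.36 in wt. Ciita, the master activator of the pathway, read 11.10, 10.18, 10.58 and 9.56 in wt CD4-equivalent, wt CD8-equivalent, ko CD4-equivalent and ko CD8-equivalent DCs, a ko difference of -1.01. Ctss, a protease that trims the invariant chain, differed by -1.04, Cd74, the invariant chain, by -0.48 and H2-Aa by -0.35. Of 18 class I genes 0 were 2-fold apart, and their median was 0.09. They ran from Psmb10 (-0.45) to Wdfy4 (0.85), a factor of cross-presentation. Of 15 cathepsin and lysosome genes 3 were at least 2-fold lower, Cd63 (-2.33), Cd68 (-1.48) and Ctss, with a median of -0.54.

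Maturation genes were lower in CD8-equivalent DCs in both genotypes. Of 13 compared, 5 were lower by 2-fold or more in ko and 0 were higher. The median was -0.85 in ko and -0.86 in wt. Only 10 of the 13 reached the floor in ko CD8-equivalent DCs, and the rest entered through their ko CD4-equivalent value. Fscn1, an actin-bundling protein of mature DCs, read 8.34, 5.00, 8.66 and 5.19 in wt CD4-equivalent, wt CD8-equivalent, ko CD4-equivalent and ko CD8-equivalent DCs, a ko difference of -3.47. Both CD8-equivalent arrays lay below the floor. Cd40, a receptor for T cell help, read 8.58, 6.77, 9.12 and 6.73. Cd83 (-1.52), Relb (-1.17) and Nfkb2 (-1.15) made up the rest, and Cd80 (-0.54) and Cd86 (-0.15), ligands of CD28, lay under 2-fold.

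Integrins and uptake receptors were mixed. Of 13 integrins 3 were at least 2-fold lower, Itgb5 (-2.18), Itgam and Itga5 (-1.64), and Itgb3 was higher (1.66). Itgb3 read 6.28, 7.64, 6.92 and 8.59 in wt CD4-equivalent, wt CD8-equivalent, ko CD4-equivalent and ko CD8-equivalent DCs. Itgae, which encodes CD103, reached 7.42 in wt CD8-equivalent DCs and lay below the floor at 4.78 and 5.06 in ko. Of 5 Fc receptor genes Fcgr1 and Fcgr3 (-2.57) were lower and Fcrla was higher. Of 12 scavenger and dead-cell receptors 3 were at least 2-fold lower and 2 higher. Havcr2, which encodes TIM-3, was higher by 2.08, and Axl, a receptor for dying cells, lower at -2.09.

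Genes of DNA replication were higher in ko CD8-equivalent DCs as a group. All 19 compared lay above 0, from 0.46 to 1.58, and 13 were at least 2-fold higher, against 3.39% of all genes compared. The median was 1.11, against 0.73 in wt, where 2 were at least 2-fold higher. After cyclic loess 9 of 19 were at least 2-fold higher. In the limma fit of both genotypes, 17 of 19 were called higher in CD8-equivalent DCs, against 7.98% of all genes tested. Mcm2, a subunit of the replicative helicase, read 9.58, 10.57, 9.28 and 10.86 in wt CD4-equivalent, wt CD8-equivalent, ko CD4-equivalent and ko CD8-equivalent DCs, a ko difference of 1.58. Mcm3, another subunit, read 8.87, 9.82, 8.58 and 10.04, and Cdc6, which loads the helicase, 6.66, 7.61, 6.61 and 8.04. In all 3 genes the ko CD8-equivalent array was the highest.

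Gins1 (1.43), Mcm4 (1.29), Rrm2 (1.29), a subunit of ribonucleotide reductase, and Tyms (1.27), thymidylate synthase, came next, and Pcna (0.46), the sliding clamp, was the lowest of the list. Genes of mitosis differed less. All 19 lay above 0, from 0.12 for Ube2c to 0.86 for Cenpe, but 0 were 2-fold apart, and the median was 0.54 in ko and 0.64 in wt. In the limma fit 12 of the 19 were called higher, against 7.98% of all genes tested. Mki67, a marker of dividing cells, read 11.42, 11.79, 11.76 and 12.27, a ko difference of 0.51.

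**Figure D4:**
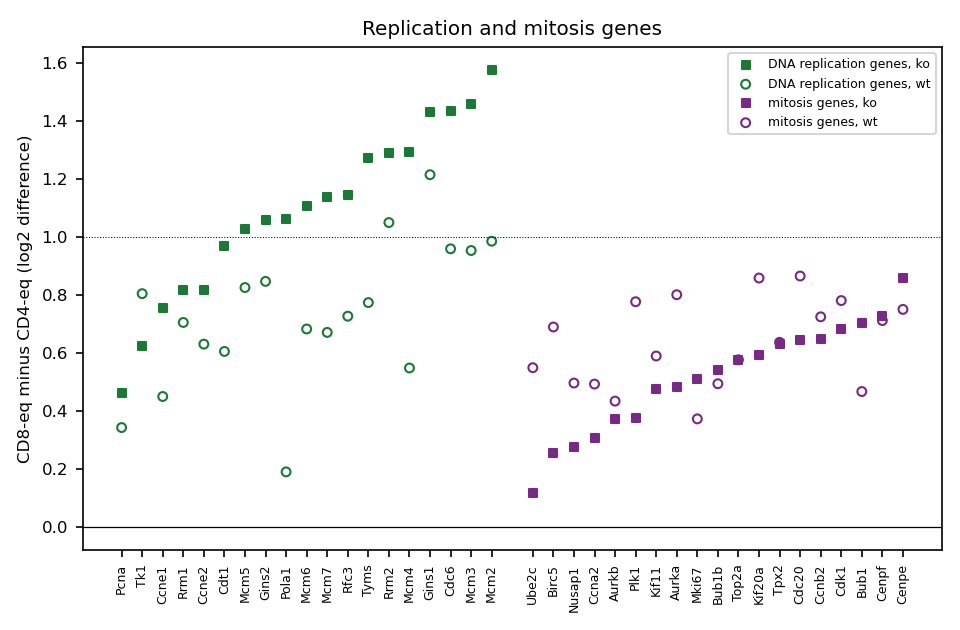
Log2 subset difference, CD8-equivalent minus CD4-equivalent, for 19 DNA replication genes (green) and 19 mitosis genes (purple), with filled squares for ko and open circles for wt; the dotted line marks 2-fold. All ko values of both lists lie above 0, and 13 replication genes but 0 mitosis genes pass 2-fold in ko.

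The promoters of the replication genes were searched in the same way for the E2F-type letters TTTCCCGC, TTTCGCGC, TTTGCCGC and TTTGGCGC, a motif of factors active in S phase. A match was found in 8 of the 15 replication genes in the table (53.3%), against 411 of 8199 genes compared (5.01%) and 744 of all promoters (2.26%). For the interferon-type letters the same 15 genes held 0 matches, and 1 of 17 interferon-stimulated genes (5.88%) held an E2F-type match. In 5 promoters of the whole table a match of one kind overlapped one of the other. The 4 replication genes with the largest ko differences that hold a match are shown, again on the gene's strand with matches in capitals: Mcm3 at chr1:20820263-20820322 (minus strand), Cdc6 at chr11:98907988-98908047 (plus), Rfc3 at chr5:151651184-151651243 (minus) and Mcm7 at chr5:138172014-138172073 (minus).
Mcm3: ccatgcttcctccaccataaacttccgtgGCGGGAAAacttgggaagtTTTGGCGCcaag
Cdc6: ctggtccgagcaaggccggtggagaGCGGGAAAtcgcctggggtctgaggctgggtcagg
Rfc3: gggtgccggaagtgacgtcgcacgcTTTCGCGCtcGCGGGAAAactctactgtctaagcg
Mcm7: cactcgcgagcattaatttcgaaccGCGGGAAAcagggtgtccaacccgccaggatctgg

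The Mcm3 and Rfc3 windows hold 2 matches each. Mcm2 (1.58), Rrm2 (1.29) and Tyms (1.27) were among the replication genes without a match. Rfc3, a subunit of the clamp loader, and Mcm7, a helicase subunit, each differed by 1.14 in ko.

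Few genes reported elsewhere as miR-142 targets were 2-fold apart between the ko subsets, as was the case for all genes. Of 22 compared, 1 was at least 2-fold higher and 0 lower, against shares of 3.39% and 3.9% over all genes compared. Whether the list differs from those shares was not tested. Its median was -0.06 in ko and -0.07 in wt. The higher one was Cox6a2, which also stands among the pDC genes. Tgfbr2, a receptor of TGF-beta, lay just under 2-fold at -0.99, and Cfl2, an actin-severing protein, and Twf1, an actin monomer binder, differed by -0.15 and 0.12. Of 9 Notch and lymphotoxin pathway genes 0 were 2-fold apart, with Notch2, needed by splenic cDC2, at -0.22 and Notch1 at 0.93.

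Metabolic genes were near 0. Of 12 cholesterol synthesis genes and 12 glycolysis genes 0 were 2-fold apart, with medians of 0.15 and 0.01. The glycolysis median lay below 0 after cyclic loess or median centring. Of 9 NADPH oxidase and phagosome genes 2 were at least 2-fold lower, Atp6v0d2 (-1.60), a proton pump subunit, and Cybb (-1.49), the catalytic subunit of the oxidase. Of 19 immediate-early and stress genes, 18 lay below 0 in ko and 5 were at least 2-fold lower in CD8-equivalent DCs. The median was -0.57 in ko and -0.32 in wt. Atf3, a stress transcription factor, read 10.18, 8.89, 10.11 and 7.49 in wt CD4-equivalent, wt CD8-equivalent, ko CD4-equivalent and ko CD8-equivalent DCs, a ko difference of -2.63. Jun (-2.24), Dusp1 (-2.03), Junb (-1.06) and Fos (-1.03) were the others.

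**Figure D5:**
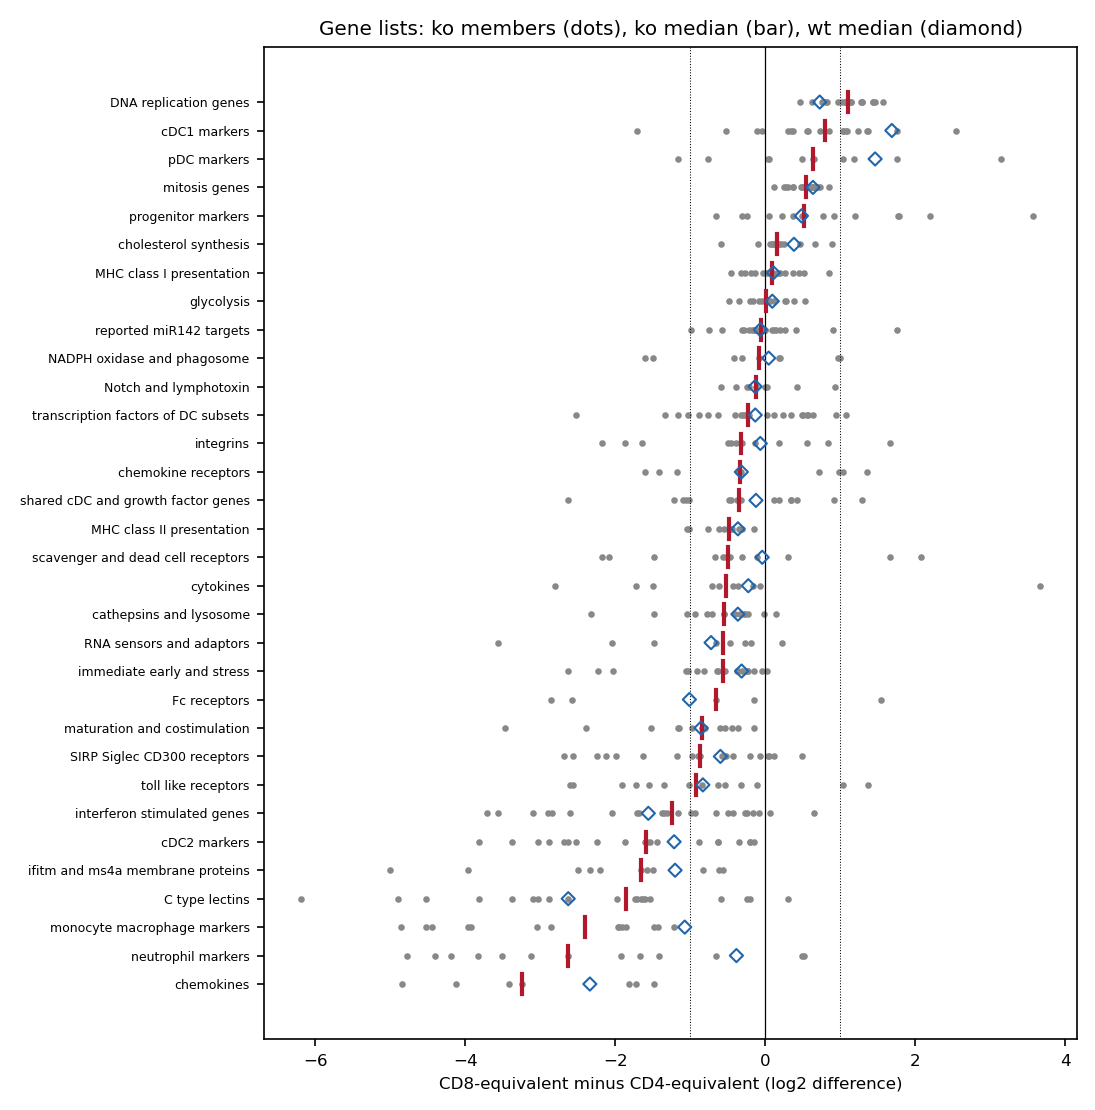
Log2 subset difference, CD8-equivalent minus CD4-equivalent, of the members compared in ko (grey dots) for each list with at least 5 such members, with the ko median as a red bar and the wt median of the same genes as a blue diamond; dotted lines mark 2-fold. The chemokine, neutrophil and macrophage lists lie farthest to the left, at -3.25, -2.63 and -2.41, and the replication list farthest to the right at 1.11.

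The lists overlap, so their counts are not independent of each other. The genes whose subset difference in ko was farthest below that in wt were Lcn2 (-3.95 apart), Ngp (-3.76), C1qb (-3.41), C3ar1 (-3.40), S100a8 (-3.36), Retnlg (-3.18), S100a9 (-3.08) and Clec9a (-2.80). For the neutrophil genes among them the ko CD4-equivalent array was the one that stood apart, for C1qb and C3ar1 the ko CD8-equivalent array, and for Clec9a the wt CD4-equivalent array. Those farthest above it were Il18rap (3.37), Cd209c (2.90), Ffar2 (2.33), Drc7 (2.09), Cd81 (2.03), F13a1 (2.03), Dntt (1.99) and Kcng1 (1.78).

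Il18rap, the accessory chain of the interleukin-18 receptor, read 8.64 in wt CD4-equivalent, 6.12 in wt CD8-equivalent, 5.63 in ko CD4-equivalent and 6.48 in ko CD8-equivalent DCs, so only the wt CD4-equivalent array was high. Ffar2, a receptor for short-chain fatty acids, read 8.43, 5.46, 5.71 and 5.07 and had the same shape. Cd81, a tetraspanin, read 7.77, 7.67, 6.94 and 8.87, with the ko arrays on either side of the wt arrays. Kcng1, a potassium channel subunit, read 6.84, 7.50, 6.13 and 8.57 and was likewise widest apart in ko.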

How the data were processed

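The authors deposited log2 expression values for every probe set on each array. Per the submitters' processing notes RMA and Partek were used, and the sources used here give no versions. The log base was inferred from the values, which ran from 3.52 to 14.3. Column medians were 5.91, 5.87, 5.88 and 5.94 for wt CD4-equivalent, wt CD8-equivalent, ko CD4-equivalent and ko CD8-equivalent DCs. No scanner values or detection calls were used here, so scale and centring stay unknown, and RMA compresses differences near background.

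Of 35399 probe sets, 21789 had 1 gene symbol in the platform annotation, 1621 had several and 11989 were unnamed here, and 21698 of the single-symbol sets matched a RefSeq gene. For 999 genes with several sets the one with the highest mean was used. Log2 differences between 2 arrays were computed in Python 3.11.15 without a test. The common subset effect was fitted with limma 3.58.1 in R 4.3.3 (lmFit and eBayes, subset and genotype as terms, two-sided, Benjamini-Hochberg over 10239 genes, threshold 0.05, 3.98 prior degrees of freedom) and tested on simulated data.

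The 36 gene lists and the members were chosen with earlier results of these data known. Genes were named if they were among the 15 highest or 15 lowest ko differences, the 8 highest or lowest differences between ko and wt, a marker, or, within a list, at least 2-fold apart or among the 3 most expressed members under 2-fold, which gave 256 genes. Other names, among them list members given to show the range, were chosen after their values were seen. Alternatives were no floor, a floor 1 log2 unit higher, cyclic loess, median centring and the mean of a gene's probe sets.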

Additional observations from a re-analysis of the deposited data

Results flagged for a closer look

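Of the 256 genes named by the rule, 4 had a subset difference in ko on the opposite side of 0 from wt and at least 2-fold apart from it, as did 63 of all 10239 genes at or above the floor on an array. In each case the difference between genotypes was not tested. Cadm1, the adhesion molecule of cDC1, had a ko difference of -1.71 and a wt difference of 0.14. Cd81, a tetraspanin, had 1.93 in ko and -0.10 in wt. Il18rap, the accessory chain of the interleukin-18 receptor, had 0.85 in ko and -2.52 in wt. Ltf, lactoferrin of neutrophil granules, had -1.93 in ko and 0.03 in wt, and only its ko CD4-equivalent value of 6.31 reached the floor. The wt differences of Cadm1, Cd81 and Ltf were small, so for these genes the sign in wt carries little.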

How the results depend on the processing

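The counts of all genes at least 2-fold higher (343) or lower (395) in ko stayed within 1.5 times of those reported under every alternative that was run. Other 2-fold counts, of list members or of differences between genotypes, moved further in places. Cyclic loess and median centring each raised 2 of them and reduced 3 by more than 1.5 times. The floor 1 log2 unit higher reduced 4 by as much. Without the floor, limma called 501 genes higher in CD8-equivalent DCs in place of 817, with more genes in the adjustment. It called 686 higher and 723 lower after cyclic loess, and 1223 and 905 with trend and robust settings. Of 175 list medians recomputed under alternatives, 153 moved by less than 0.196 (the robust SD of the ko minus wt differences over the square root of 2, used for want of replicates), 19 by more, and 3 changed sign. The chemokine receptor median was 0.18 with the floor 1 log2 unit higher, in place of -0.34, with fewer genes compared. The glycolysis median was -0.11 after cyclic loess and -0.041 after median centring, in place of 0.01. Rescaling by cyclic loess or median centring gave 512 values for the 256 named genes, which all moved by less than that. Of these, 8 changed sign, none of them for a gene 2-fold apart. The floor cannot alter a single gene's difference. With the mean of its probe sets Ifitm2 was at -1.07 in place of -0.83. The limma fit compares the subsets within each genotype, and leaving out either ko array leaves no ko comparison. Signal near background limits the ratios of genes whose lower value lies under the floor.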

Other observations

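Of the 130 genes at least 4-fold apart in ko, 69 were in no list, 45 of them lower and 24 higher in CD8-equivalent DCs. The genes named here were chosen after their values were seen. Fn1, fibronectin, read 9.08 in ko CD4-equivalent and 5.35 in ko CD8-equivalent DCs, a difference of -3.73 against -2.67 in wt. Lrp1, a large endocytic receptor, differed by -3.57 in ko and -2.51 in wt, and Dab2, a clathrin adaptor, by -3.44 and -1.94. Lpl, lipoprotein lipase, read 10.23 in ko CD4-equivalent and 6.73 in ko CD8-equivalent DCs, a difference of -3.50 in ko and -0.83 in wt.

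Among the higher genes in no list, Tet1, an enzyme that oxidises methylated cytosine, differed by 2.26 in ko and 0.88 in wt. Cmah, which makes a form of sialic acid, differed by 2.37 and 2.74, Igfbp4, which binds insulin-like growth factors, by 2.17 and 1.76, and S1pr3, a sphingosine-1-phosphate receptor, by 2.53 and 2.25. Hs3st1, which sulfates heparan chains, read 5.53 in ko CD4-equivalent and 7.80 in ko CD8-equivalent DCs, a difference of 2.26 against 1.65 in wt.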
